A study of Mus musculus with 9 samples.

Results

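The bipolar subtype identity genes described here are a list of 9 genes, Vsx1, Isl1, Bhlhe22, Bhlhe23, Irx5, Irx6, Grik1, Cabp5 and Scgn, out of 55487 genes with deposited values. They were found by their gene symbols, and all 9 were among the 21330 genes tested. Bipolar cells carry the signal of rods and cones to the inner retina. Rod bipolar cells and ON cone bipolar cells depolarise when light falls on the photoreceptors and use a metabotropic glutamate receptor cascade, whereas OFF cone bipolar cells hyperpolarise and use ionotropic glutamate receptors. Each subtype is recognised by a combination of transcription factors and effector proteins, and the 9 genes include factors and effectors of several of these subtypes. Some are not confined to bipolar cells in the mature retina: Isl1 also marks starburst amacrine and ganglion cells, and Bhlhe22 also marks some amacrine cells.

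Whole retinas of C57 BL/6J mice at postnatal day 21 (P21) were profiled by bulk RNA-seq. Cre- controls carried no Cre transgene and are labelled WT. The tHet retinas carried a Cre-GFP transgene with 1 floxed copy of each of Tet1, Tet2 and Tet3, and the Tet tcKO retinas carried the transgene with both copies of each gene floxed. Each of the 3 genotypes had 3 libraries, and each library pooled the retinas of 2 animals. The transgene drives Cre in retinal progenitor cells, so that bipolar cells and the other neurons and the Müller glia that descend from them are all affected. The transgene can be mosaic, and Cre+ animals were in-crossed to lessen this, whereas Cre- animals came from Cre- breeders. A difference between Cre- and a Cre+ genotype and a difference between breeding lines cannot be told apart.

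Reads counted on genes numbered 9627927 to 21108256 per library, and values are given as CPM, the reads of a gene scaled to the same total in every library. The ribosomal RNA gene CT010467.1 took 28.7% of the reads in replicate 3 of Tet tcKO and 3.72% in replicate 3 of tHet, against 0.0409% to 0.226% in the other libraries, which lowers the CPM of every other gene in those libraries. With this gene left out of the totals, the median log2 fold change (log2FC) of all genes in Tet tcKO versus Cre- moved from 0.00 to 0.14, and the share of called genes that were higher moved from 56.5% to 73.4%. In Tet tcKO versus tHet that share moved from 46.4% to 66.5%. The log2FC of Tet3 between Tet tcKO and Cre- was -0.99 (limma adjusted p = 0.0174). Tet1 and Tet2 had log2FC of 0.22 and 0.25 (limma adjusted p = 0.808 and 0.793), counted over whole genes, exons outside the deleted part included.

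Among the identity genes, only Cabp5 was called higher in Tet tcKO retinas, against both Cre- and tHet. Bhlhe23 and Irx6 were called lower against Cre- only. Genes were called at an absolute log2FC of at least 1 and a limma adjusted p under 0.01 over all tested genes, the thresholds of the study. By this rule 3 of the 9 genes were called in Tet tcKO versus Cre-, 1 higher and 2 lower, where 3.60% of all tested genes were called, 2.03% higher and 1.57% lower. In Tet tcKO versus tHet, 1 of 9 was called, Cabp5, which was higher, against 3.00% of all tested genes (1.39% higher and 1.61% lower). At an adjusted p under 0.05 without a fold threshold, 4 of 9 passed against Cre- (6.50% of all tested genes). Of these 1 was higher (3.53%) and 3 were lower (2.98%). Against tHet 3 of 9 passed (5.95%), 1 higher (2.52%) and 2 lower (3.43%). The Tet tcKO libraries were all below the Cre- libraries for 5 of the 9 genes (9.60% of all tested genes) and all above for 1 (10.0%). They were all above the tHet libraries for 2 (7.35%) and all below for 1 (9.68%). The median log2FC of the 9 genes against Cre- was -0.52, beside a median of 0.00 over all tested genes. The 2 comparisons share the Tet tcKO libraries and are given side by side. In bulk tissue, fewer cells of a type and less RNA per cell cannot be told apart.

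**Figure D1:**
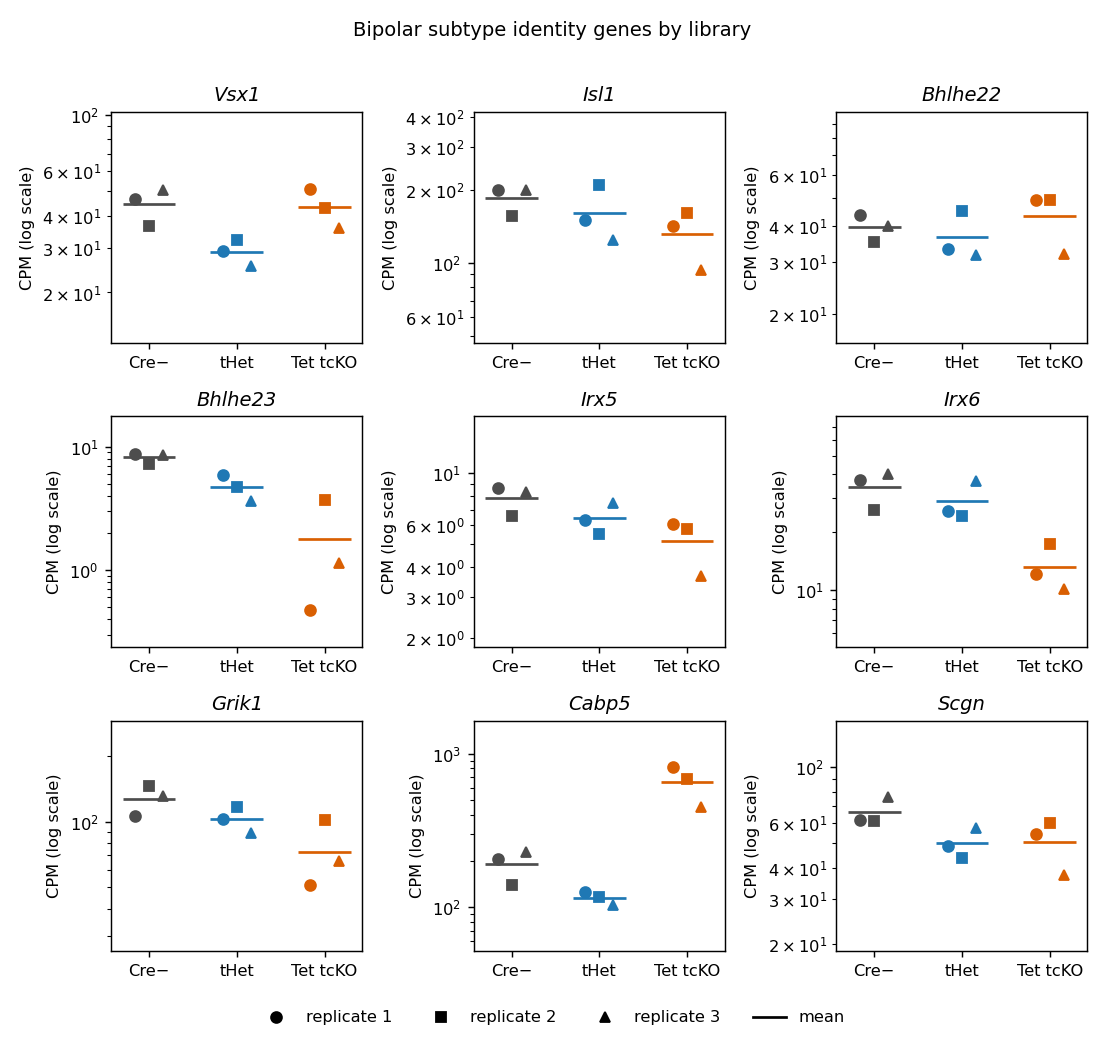
CPM (log scale) of the 9 identity genes in each library by genotype, with replicates as separate symbols and a line at the mean. The 3 Tet tcKO libraries of Cabp5 lie at 445 to 819 CPM, above all other libraries, and those of Irx6 lie at 10.1 to 17.5 CPM, below all others.

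Levels between genes were compared as CPM per kilobase of annotated exon. In Cre- retinas Cabp5 was the most abundant of the 9 at 75.3 ± 18.1 CPM per kilobase (SD, n = 3). Isl1 at 46.8 ± 6.27 and Scgn at 41.1 ± 5.36 CPM per kilobase came next and did not differ beyond their spread. Grik1 followed at 19.0 ± 2.92, and Bhlhe22 (11.9 ± 1.29), Vsx1 (11.8 ± 1.92) and Irx6 (10.2 ± 2.15 CPM per kilobase) did not differ beyond their spread. Bhlhe23 at 3.24 ± 0.322 and Irx5 at 2.51 ± 0.36 CPM per kilobase were the least abundant. In Tet tcKO retinas Cabp5 was at 257 ± 75.0 CPM per kilobase, Isl1 at 33.3 ± 8.65, and Bhlhe23 was last at 0.702 ± 0.673.

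Cabp5 encodes a calcium-binding protein of the calmodulin family that is found in rod bipolar cells and in some cone bipolar cells. It lies at chr7:13398132-13408887 on the plus strand of GRCm38. Its level was 204, 139 and 227 CPM in the 3 Cre- libraries, 124, 117 and 103 CPM in tHet, and 819, 687 and 445 CPM in Tet tcKO. Every Tet tcKO library was above every library of the other genotypes. Against Cre- the log2FC was 1.76 (standard error 0.25, 3.38-fold, limma adjusted p = 1.2e-04), and against tHet it was 2.46 (standard error 0.25, 5.49-fold, limma adjusted p = 2.9e-06). Cabp5 was called in each of 20 alternatives in both comparisons, with a log2FC of 1.55 to 2.01 against Cre-. It made up 26.7% ± 3.54 of the summed reads of the 9 genes in Cre- retinas, 21.6% ± 2.01 in tHet retinas and 63.8% ± 4.59 in Tet tcKO retinas (SD, n = 3 each).

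Promoter windows from RefSeq, 250 bases before to 50 bases after the gene start, were at hand for 5 of the 9 genes, Vsx1, Bhlhe23, Cabp5, Scgn and Isl1. The windows of Cabp5, which rose, and Bhlhe23, which fell, are printed for a comparison of their motifs (build GRCm38.p6, 5′ to 3′ on the strand of the gene). Capitals mark TAATCC, the core bound by homeodomain factors such as OTX2 and CRX, searched on both strands with the E-boxes CAGCTG and CATATG.
Cabp5 (chr7:13397905-13398204, plus strand): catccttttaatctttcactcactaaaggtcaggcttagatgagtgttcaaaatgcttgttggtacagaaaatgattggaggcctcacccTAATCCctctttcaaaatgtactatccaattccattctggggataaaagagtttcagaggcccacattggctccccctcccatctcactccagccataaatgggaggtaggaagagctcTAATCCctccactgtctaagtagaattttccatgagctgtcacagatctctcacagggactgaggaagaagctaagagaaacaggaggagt
Bhlhe23 (chr2:180776851-180777150, minus strand): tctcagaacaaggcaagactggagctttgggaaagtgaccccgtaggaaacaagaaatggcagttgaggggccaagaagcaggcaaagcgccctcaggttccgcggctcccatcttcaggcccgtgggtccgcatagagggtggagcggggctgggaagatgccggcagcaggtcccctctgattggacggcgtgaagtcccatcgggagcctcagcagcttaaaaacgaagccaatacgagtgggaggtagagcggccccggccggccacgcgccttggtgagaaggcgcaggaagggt
The Cabp5 window holds TAATCC 2 times, 160 and 41 bases before the start. Of 32817 windows, 7.063% hold at least 1 and 0.36% hold at least 2. The Bhlhe23 window holds none of the 3 motifs. Among the others, the Isl1 window holds 1 TAATCC and 1 CAGCTG, the Vsx1 window 2 CAGCTG, and the Scgn window none (CAGCTG is in 16.309% and CATATG in 3.916% of windows). A match describes the letters of the window only.

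Bhlhe23 encodes a basic helix-loop-helix factor needed for rod bipolar cell maturation. It is a single-exon gene at chr2:180774381-180776900 on the minus strand, whose exon shares 144 bp with Gm14343 on the same strand. Its level was 8.77, 7.25 and 8.51 CPM in Cre-, 5.83, 4.67 and 3.65 CPM in tHet, and 0.475, 3.69 and 1.14 CPM in Tet tcKO, from 8 to 56 reads in the last group. All Tet tcKO libraries were below all Cre- libraries, while replicate 2 of Tet tcKO was level with the lowest tHet library. The log2FC was -2.20 against Cre- (standard error 0.41, 4.58-fold lower, limma adjusted p = 0.00154) and -1.45 against tHet (limma adjusted p = 0.0387, not called). The call against Cre- was lost with no filter on low values (limma adjusted p = 0.0113), with edgeR (adjusted p = 0.0119), and without replicate 1 (-1.72, limma adjusted p = 0.0181) or replicate 3 of Tet tcKO (-2.10, limma adjusted p = 0.0337). Against tHet, Bhlhe23 was called without replicate 2 of Tet tcKO (-2.02, limma adjusted p = 0.00101) and with only the 6 libraries compared (limma adjusted p = 0.00372), and it no longer passed the looser rule with both libraries rich in CT010467.1 left out (-1.50, limma adjusted p = 0.132).

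Isl1 encodes a LIM-homeodomain factor of ON bipolar cells. Its level was 199, 157 and 200 CPM in Cre-, 150, 209 and 125 CPM in tHet, and 142, 160 and 93.8 CPM in Tet tcKO. The groups overlapped, and the log2FC was -0.52 against Cre- (95% interval -1.03 to -0.01, limma adjusted p = 0.301). Bhlhe22, a factor related to Bhlhe23 that is used by OFF cone bipolar cells, had 43.8, 35.2 and 40.0 CPM in Cre-, 33.4, 44.9 and 31.7 CPM in tHet, and 49.2, 49.2 and 32.0 CPM in Tet tcKO. Its groups also overlapped, with a log2FC of 0.11 against Cre- (95% interval -0.37 to 0.59). The ratio of Bhlhe23 to Bhlhe22 reads was 0.200 to 0.213 within Cre- libraries, 0.104 to 0.175 within tHet libraries and 0.00965 to 0.0751 within Tet tcKO libraries. The 3 ranges did not overlap.

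Vsx1 encodes a homeodomain factor of cone bipolar cells that is needed by OFF subtypes. It had 46.6, 36.5 and 50.6 CPM in Cre-, 29.2, 32.1 and 25.3 CPM in tHet, and 51.1, 42.8 and 35.8 CPM in Tet tcKO. The tHet libraries were all below both other groups, and the Tet tcKO and Cre- libraries overlapped. In Tet tcKO versus Cre- the log2FC was -0.04 (95% interval -0.51 to 0.42, limma adjusted p = 0.977), and its sign turned with CT010467.1 left out of the totals (0.12). Against tHet it was 0.57 (limma adjusted p = 0.164).

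Irx5 and Irx6 are neighbouring Iroquois homeobox genes on chromosome 8, 298001 bp apart, that are used by subsets of OFF cone bipolar cells. Irx6 (chr8:92674288-92680956, plus strand) had 37.1, 26.2 and 39.9 CPM in Cre-, 25.9, 24.3 and 36.8 CPM in tHet, and 12.2, 17.5 and 10.1 CPM in Tet tcKO. All Tet tcKO libraries were below all other libraries. Its log2FC was -1.36 against Cre- (standard error 0.26, 2.56-fold lower, limma adjusted p = 0.00197) and -1.11 against tHet (standard error 0.26, 2.16-fold lower, limma adjusted p = 0.0112, just short of the call). Against Cre- the call was lost without Cre- replicate 3 (limma adjusted p = 0.0215), Tet tcKO replicate 1 (0.0155) or Tet tcKO replicate 3 (0.0199). Against tHet it was gained with only the 6 libraries compared (limma adjusted p = 0.0052), with DESeq2 (adjusted p = 0.00207), and without Cre- replicate 1 (limma adjusted p = 0.00664), Cre- replicate 2 (0.00574) or Tet tcKO replicate 2 (0.0046). With both libraries rich in CT010467.1 left out, the log2FC against tHet was -0.76 and did not pass (limma adjusted p = 0.0943). Irx5 (chr8:92357625-92376286, plus strand) had 8.65, 6.55 and 8.30 CPM in Cre-, 6.34, 5.50 and 7.49 CPM in tHet, and 6.06, 5.80 and 3.67 CPM in Tet tcKO. Its Tet tcKO libraries were below all Cre- libraries, but the log2FC of -0.57 did not pass (95% interval -1.18 to 0.04, limma adjusted p = 0.357). Within a library, Irx6 had 4.00 to 4.80 times the reads of Irx5 in Cre-, 4.08 to 4.91 times in tHet and 2.01 to 3.01 times in Tet tcKO.

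Grik1 encodes a kainate receptor subunit of the OFF bipolar synapse. Its level was 106, 145 and 131 CPM in Cre-, 103, 116 and 88.8 CPM in tHet, and 51.1, 101.3 and 65.8 CPM in Tet tcKO. The Tet tcKO libraries were all below the Cre- libraries and overlapped the tHet libraries. The log2FC of -0.85 against Cre- passed an adjusted p of 0.05 (limma adjusted p = 0.0367) but not the fold threshold, and it was called without replicate 2 of Tet tcKO (-1.12, limma adjusted p = 0.00604). Against tHet it was -0.54 (limma adjusted p = 0.238). Scgn encodes secretagogin, a calcium sensor of cone bipolar cells. It had 61.9, 61.2 and 76.5 CPM in Cre-, 48.9, 43.7 and 57.3 CPM in tHet, and 54.2, 59.9 and 37.3 CPM in Tet tcKO. Both Cre+ genotypes were below Cre- in every library, and the log2FC of Tet tcKO was -0.42 against Cre- (limma adjusted p = 0.397) and -0.01 against tHet, where the sign turned under TMM scaling (0.06).

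**Figure D2:**
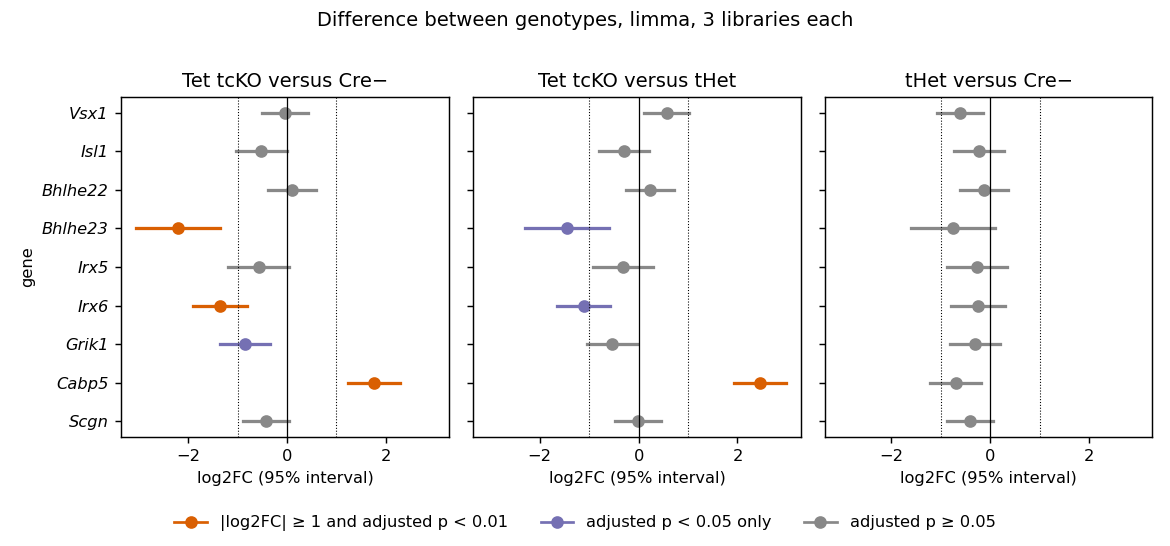
Log2FC of the 9 genes with 95% intervals in each comparison (limma, 3 libraries per genotype), coloured by the test passed. Cabp5 lies at 1.76 and 2.46 in the Tet tcKO comparisons, and all 9 points lie below 0 in tHet versus Cre-.

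Relative to the median of all genes, leaving CT010467.1 out of the totals gave a log2FC against Cre- of 1.78 for Cabp5, -2.22 for Bhlhe23, -1.34 for Irx6 and -0.83 for Grik1. The number called stayed at 3.

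**Figure D3:**
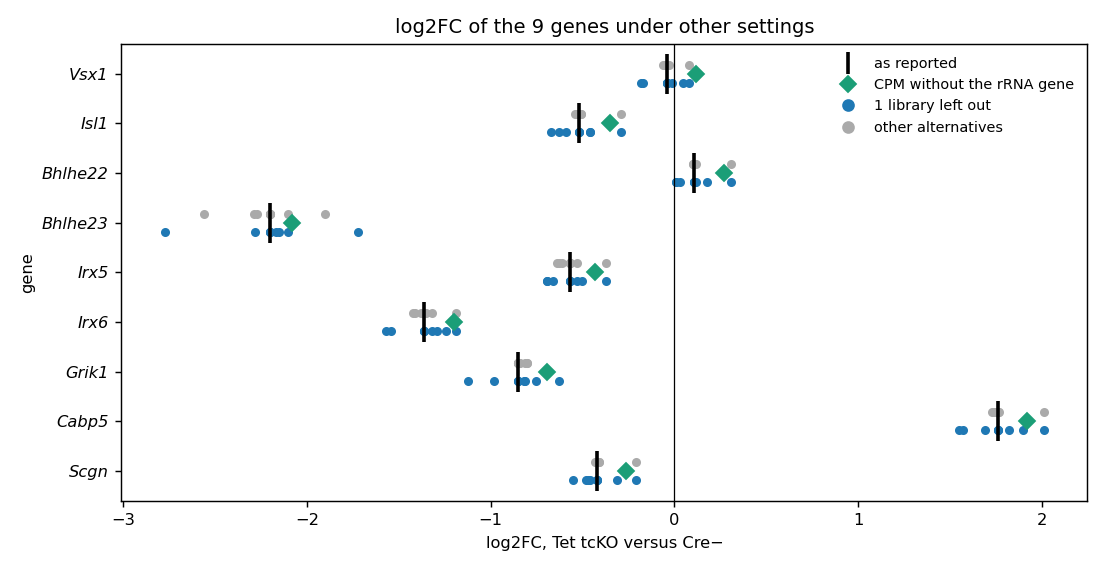
Log2FC of the 9 genes in Tet tcKO versus Cre- as reported (bar) and under the alternatives, with CPM without the ribosomal RNA gene as diamonds and fits without 1 library in blue. Cabp5 stays between 1.55 and 2.01, whereas Vsx1 lies on both sides of 0.

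**Figure D4:**
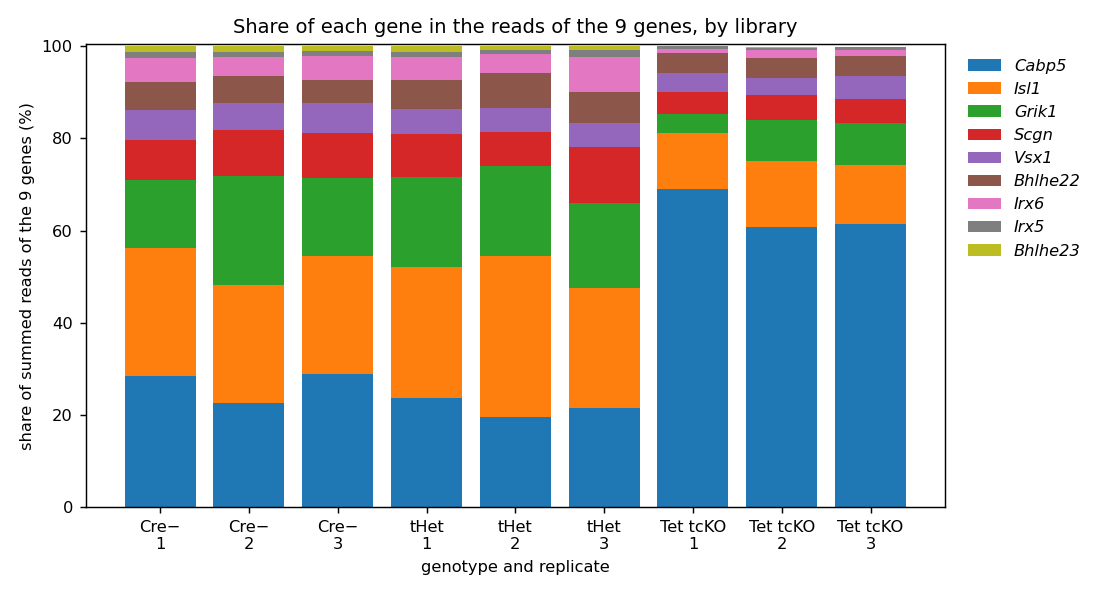
Share of each gene in the summed reads of the 9 genes, by library (stacked to 100%). Cabp5 holds 60.9% to 69.1% in the Tet tcKO libraries and 19.6% to 29.0% in the others.

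Comparison of tHet with Cre- retinas asks whether loss of single copies of the Tet genes, with the transgene present, is enough to move these genes. None of the 9 was called, where 0.0422% of all tested genes were called, and none passed an adjusted p of 0.05 (0.0938%). Cabp5 (log2FC -0.70) and Vsx1 (log2FC -0.61) had limma adjusted p of 0.984 and 0.987. With edgeR and with DESeq2, 0 of the 9 genes were called. All 9 had a log2FC below 0, with a median of -0.31, beside 41.8% of all tested genes below 0 and a median of 0.06. This sign held for each gene in all 20 alternatives, which reuse the same libraries. For 4 genes, Vsx1, Bhlhe23, Cabp5 and Scgn, the tHet libraries were all below the Cre- libraries, as for 5.37% of all tested genes, and for none were they all above (5.78%). Cabp5 was thus lower in every tHet library than in Cre-, and higher in every Tet tcKO library. The shift below 0 in tHet was not particular to the 9 genes. In the lists described below, 6 of 6 rod bipolar genes (median -0.33) and 6 of 8 genes shared by bipolar cells (-0.27) were below 0. So were 12 of 14 OFF cone bipolar genes (-0.25) and 6 of 10 ON cone bipolar genes (-0.05), but only 5 of 11 ON cascade genes (0.04).

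The genes used by each class of bipolar cell were described from lists of other markers. Of 6 rod bipolar genes, 4 were called lower in Tet tcKO versus Cre- and none higher, with a median log2FC of -1.36. Car8 (-2.43), Sebox (-1.99) and Prkca, the protein kinase C alpha used to stain rod bipolar cells (-1.34), were among those called, and Vstm2b had a log2FC of -0.12. Sebox was called in 20 of 20 alternatives, Car8 in 18 and Prkca in 15. The Prkca call was lost without replicate 3 of Cre- or replicate 1 or 3 of Tet tcKO, and with no filter on low values. That of Car8 was lost without replicate 3 of Tet tcKO. Both calls were lost with both libraries rich in CT010467.1 left out. Car8 had a log2FC of -1.84 without replicate 1 of Tet tcKO. Against tHet 3 were called lower. The summed level of this list was 763 to 871 CPM in Cre-, 547 to 818 CPM in tHet and 252 to 492 CPM in Tet tcKO. Bhlhe23 fell with these genes while Cabp5, also a rod bipolar protein, rose.

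Of 11 genes of the ON bipolar cascade, 3 were called lower and 1 higher against Cre-. The cation channel gene Trpm1 (-2.16) and Nyx, which encodes nyctalopin (-2.16), were lower, as was the G protein subunit Gnb5 (-1.37), whereas Gnb3 (1.37), a G protein subunit that cones also use, was higher. Gnb5 and Gnb3 were called in each of 20 alternatives, Nyx in 13 and Trpm1 in 10. In bulk tissue, the cells in which Gnb5 fell and Gnb3 rose cannot be told. Without replicate 1 of Tet tcKO the log2FC of Trpm1 was -1.27 and was not called (limma adjusted p = 0.0392), and that of Nyx was -1.38. Without replicate 2 of Tet tcKO that of Trpm1 was -2.90. The Trpm1 call was also lost without replicate 3 of Cre- (limma adjusted p = 0.0258) or replicate 3 of Tet tcKO (0.0767), and the Nyx call without replicate 3 of Tet tcKO (0.0321). Both calls were lost with edgeR (adjusted p = 0.071 for Trpm1 and 0.0266 for Nyx) and with DESeq2 (adjusted p = 0.0877 and 0.0284). They were lost as well with TMM scaling, totals without CT010467.1, no filter on low values, and both libraries rich in CT010467.1 left out. Against tHet, Trpm1 had a log2FC of -2.11 and was not called (limma adjusted p = 0.0106). Nyx was called there (-1.86, limma adjusted p = 0.00965), but in only 7 of 20 alternatives, and it had a log2FC of -1.09 without replicate 1 of Tet tcKO. Gnao1 (-0.26) and Gpr179 (-0.60) did not pass. Of 8 genes shared by bipolar cells, Trnp1 was called lower (-1.24), and Pcp2 (-1.57, limma adjusted p = 0.0118) did not meet the threshold but was called with the replicate number as a block (limma adjusted p = 0.00131). Trnp1 was called against Cre- in 16 of 20 alternatives, and not without replicate 3 of Cre- or replicate 1 or 3 of Tet tcKO. It was also not called with both libraries rich in CT010467.1 left out. Neurod4 (0.21) did not pass. Against tHet, Trnp1 had a log2FC of -0.51 (limma adjusted p = 0.252) and was called in 0 of 20 alternatives. Every tHet library was already below every Cre- library for Trnp1, with a log2FC of -0.73 (limma adjusted p = 0.775, not called).

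Of 14 OFF cone bipolar genes, 1 was called higher, Col11a1 (2.36), and 1 lower, Syt2 (-1.33), against Cre-. Col11a1 was called in 20 of 20 alternatives, but its mean was already higher in tHet (21.8 CPM) than in Cre- (8.21 CPM), with 45.1 CPM in Tet tcKO. Against tHet its log2FC was 0.97, which was not called, and it was called there in 1 of 20 alternatives. Syt2 was called against Cre- in 15 of 20 alternatives, its call being lost without replicate 3 of Cre- or replicate 1 or 3 of Tet tcKO. The Syt2 call was also lost with no filter on low values and with both libraries rich in CT010467.1 left out. Nnat had a log2FC of 1.15 (limma adjusted p = 0.0155) and was called with the replicate block (limma adjusted p = 9.2e-04), and Pcdh10 (0.21) and Pcdh17 (0.63) did not pass. Against tHet, Erbb4 (1.27) and Tacr3 (1.08) were called higher, and Syt2 lower. Of these Erbb4 was called in 16 and Syt2 in 11 of 20 alternatives. Tacr3 was named after its values were seen. Of 10 ON cone bipolar genes, none was called in either Tet tcKO comparison, but Kcng4 was close to the threshold. Its log2FC was 0.98 against Cre- (limma adjusted p = 0.0301, called in 4 of 20 alternatives) and 1.17 against tHet (limma adjusted p = 0.0102, called in 11 of 20 alternatives). At an adjusted p under 0.05 it was the 1 gene of the list that passed in each comparison. Spock3 (0.11) and Serpini1 (0.35) did not pass.

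**Figure D5:**
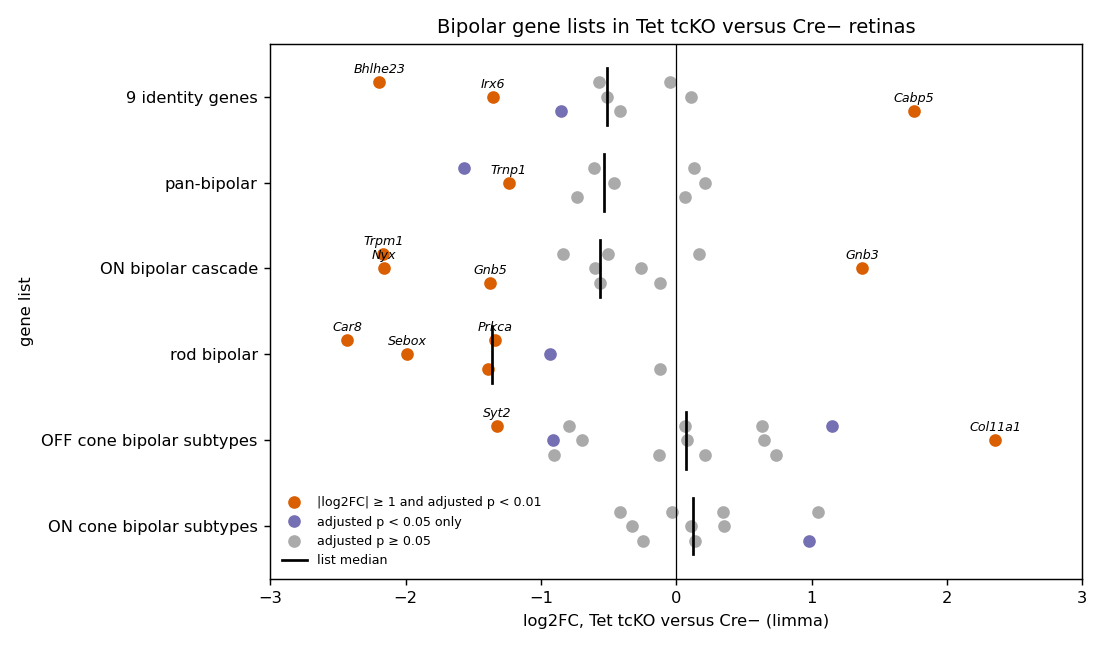
Log2FC in Tet tcKO versus Cre- of the 9 identity genes and 5 other bipolar lists, with a point per gene and a bar at the list median. Called genes are named except 1 of the rod bipolar list, and the rod bipolar median lies at -1.36, the OFF cone bipolar median at 0.07.

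Relatives of the 9 genes, 18 in all with 16 tested, gave 2 called lower against Cre- and none higher. Both encode calcium-binding proteins of the Cabp5 family, Cabp2 (-1.91) and Cabp4 (-1.71), a photoreceptor synapse protein. Cabp4 was called in 20 of 20 alternatives and Cabp2 in 12, its call being lost without replicate 3 of Cre- or replicate 1 or 3 of Tet tcKO. The Cabp2 call was also lost with edgeR (adjusted p = 0.0258), TMM scaling, totals without CT010467.1, no filter on low values, and both libraries rich in CT010467.1 left out. The LIM factor Isl2 (1.49, limma adjusted p = 0.0301) and the basic helix-loop-helix factor Olig3 (-1.41, limma adjusted p = 0.0487) passed the looser rule, and both were called with the replicate block (limma adjusted p = 0.00239 and 0.00442). Calb1 (-0.62) and Grik2 (0.01) did not pass. None of the Irx genes other than Irx6 passed in either Tet tcKO comparison. Against tHet, Cabp4 had a log2FC of -1.85 and was called in 20 of 20 alternatives. Cabp2 had a log2FC of -1.06 there and was called in 0 of 20. The mean level of Cabp2 was already lower in tHet retinas (3.45 CPM) than in Cre- retinas (6.59 CPM), and Tet tcKO retinas had 1.66 CPM.

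The Tet tcKO libraries also differed in photoreceptor genes. The summed level of 8 rod genes was 30600 to 36900 CPM in Cre- and 3370 to 10800 CPM in Tet tcKO, with 7 of 8 called lower, and that of 8 cone genes was 510 to 631 and 1740 to 2690 CPM, with 6 of 8 called higher. The ratio of Cabp5 to Scgn reads, which does not depend on the library total, was 2.27 to 3.30 within Cre- libraries and 11.5 to 15.1 within Tet tcKO libraries. The part of the change in photoreceptor RNA in the results for the 9 genes was not tested.

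Genes with the pattern most like a member that passed were those with the smallest mean absolute difference of centred log2(CPM + 0.5) over the 9 libraries, among 17428 genes. For Cabp5 these were Chrna5 (0.20) and Cyyr1 (0.22), and for Bhlhe23 Lrrc66 (0.18) and Lyve1 (0.19). For Irx6 they were Glul (0.10) and Zfpm1 (0.12), and for Grik1 Ak4 (0.08) and Gm28578 (0.10).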

How the data were processed

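Total RNA of whole retinas was depleted of ribosomal RNA, and stranded libraries were sequenced. The authors trimmed reads with Trim Galore 0.6.7, aligned them to mm10 with STAR 2.7.0f and counted them on genes with HTSeq 0.11.2. The annotation release, and how strand and overlaps were treated in counting, are not given in the sources used here. The authors deposited CPM divided by plain library totals. The deposited table also holds log2 fold changes, p-values and false discovery rates of the authors' own edgeR comparisons, which were not used. All positive CPM (100%) were whole multiples of 1 read within 0.01 read, so reads were recovered. A read was worth 0.0474 to 0.104 CPM, and 3 reads 0.142 to 0.312 CPM, which covers counting error only.

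A gene was tested if 3 or more libraries reached 0.5 CPM. Values of log2(CPM + 0.5) were compared with limma 3.58.1 (eBayes with trend, R 4.3.3), 1 mean per genotype in a fit of all 9 libraries, with Benjamini-Hochberg adjustment. Fold changes are on this scale and understate those of low genes. Same-genotype libraries differed by more than sampling noise. For 3 against 3 the smallest exact two-sided permutation p is 0.1. Alternatives were 2 pseudocounts, 2 filters, TMM scaling, totals without CT010467.1, edgeR 4.0.16 and DESeq2 1.42.0 on recovered reads, a replicate block, only the 6 libraries compared, leaving out each library, and a looser threshold. Leaving out both libraries rich in CT010467.1 was chosen after seeing the data. Fits without a library kept the genes tested in the full fit; a first run had filtered genes anew, and this was changed once its counts were seen beside earlier results of these data. Both versions are given. In tHet versus Cre-, alternatives were run on the counts and on the 9 genes, not on other single genes. Methods were tested on simulated counts with the same dispersion for every gene and no library richer in CT010467.1 than the others. These are simpler than the real data. The 9 genes and the lists were chosen with earlier results of these data known. All 9 genes were named, and from each bipolar and family list at most 4 genes that passed in a Tet tcKO comparison and at most 2 of the highest level that did not, apart from some that are not reported here. Positions are from GENCODE M21 (98.1% of identifiers matched) and promoters from RefSeq. Annotated exons overlap between Bhlhe23 and Gm14343 (144 bp, same strand) and between Irx6 and the antisense Gm45505 (152 bp); whether reads were shared was not tested. Figures were drawn with matplotlib 3.10.9.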

Additional observations from a re-analysis of the deposited data

How the results depend on the processing

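Of the identity genes called, Cabp5 was called in each of 20 alternatives in both Tet tcKO comparisons, Bhlhe23 against Cre- in 15 of 20 and Irx6 against Cre- in 17 of 20. Bhlhe23 was also lost with both libraries rich in CT010467.1 left out (limma adjusted p = 0.0281). The number of the 9 genes called against Cre- ranged from 1 to 4 with 1 library left out, falling to 1 without replicate 1 or replicate 3 of Tet tcKO. With genes filtered anew on the libraries left, a version that was replaced after its counts were seen, the 9 genes gave the same ranges (1 to 4 against Cre-, 1 to 3 against tHet, 0 in tHet versus Cre-), and all tested genes gave 331 to 982, 252 to 973 and 0 to 17. Against tHet it was 2 with DESeq2, 3 at an adjusted p under 0.05, 3 with only the 6 libraries compared, and 1 to 3 with 1 library left out. The cause of these shifts was not tested.

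Same-numbered libraries come from different animals, and the labels give no shared litter or day. Their deviations from the genotype means correlated over 0.1 in 3 of 3 pairs of Cre- and Tet tcKO (r from 0.148 to 0.56), in 1 of 3 pairs of tHet and Tet tcKO (r from -0.30 to 0.273) and in 1 of 3 pairs of Cre- and tHet (r from -0.35 to 0.356). Some libraries with different numbers also correlated over 0.1. These included Cre- 2 with Tet tcKO 3 (r = 0.226), Cre- 3 with Tet tcKO 2 (0.111) and Cre- 1 with tHet 3 (0.502). The other differently numbered pairs of Cre- and Tet tcKO had r below 0. The replicate block was fitted to all 9 libraries, so its number effects were shared with the tHet libraries in every comparison. The numbers were read as a hint of pairing in Tet tcKO versus Cre- only, which does not establish a pairing. There the replicate block called the 3 genes called without it, 1127 of all tested genes and 17 in the other bipolar and family lists. In the others, where libraries share only a number, with the replicate block 3 of the 9 genes were called against tHet, Bhlhe23 (limma adjusted p = 0.00515) and Irx6 (limma adjusted p = 0.00152) with Cabp5. It gave 1125 called genes against tHet and 40 in tHet versus Cre-, and 17 and 1 in the other bipolar and family lists.

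Of all tested genes, 768 were called against Cre-, 640 against tHet and 9 in tHet versus Cre-. These were 417, 351 and 1 with no filter on low values, and 1387, 1270 and 20 at an adjusted p under 0.05. Against tHet there were 1046 with DESeq2, 1028 with only the 6 libraries compared and 426 with both rRNA-rich libraries left out. In tHet versus Cre- there were 40 with DESeq2, 1 with edgeR, with TMM scaling, with totals without CT010467.1 and with only the 6 libraries compared, and 0 with both libraries left out. Leaving out 1 library gave 360 to 976, 287 to 959 and 0 to 17. In the other bipolar and family lists, 13 genes were called against Cre-, 10 against tHet and 0 in tHet versus Cre-. These were 8 and 4 with no filter, 22 and 18 at an adjusted p under 0.05, 7 against Cre- with both rRNA-rich libraries left out, 16 against tHet with only the 6 libraries compared, and 1 in tHet versus Cre- with DESeq2. Leaving out 1 library gave 5 to 20 against Cre- and 2 to 16 against tHet.

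The signs that turned were all of log2FC that did not pass. Against Cre-, Vsx1 (0.12) and Vstm2b (0.04) turned with CT010467.1 left out of the totals, and Vsx1 (0.08), Gnao1 (0.03) and Vstm2b (0.09) with both rRNA-rich libraries left out. Against tHet, Scgn, Gnao1 and Grik2 turned, and Vstm2b, at 0.00 as reported, had no sign to turn once rounded. Scgn, Gnao1, Vstm2b and Grik2 were at 0.06, 0.04, 0.06 and 0.04 under TMM scaling, and 0.14, 0.12, 0.14 and 0.11 without CT010467.1. In the same order they were at 0.03, 0.04, 0.06 and 0.02 with edgeR, and 0.03, 0.04, 0.06 and 0.02 with DESeq2. With both rRNA-rich libraries left out, Scgn (0.30) and Gnao1 (0.28) turned, and Vstm2b was at 0.21. Irx5 was then at 0.00, which does not show a turn. With 1 library left out, the log2FC against Cre- ran from -0.18 to 0.08 for Vsx1, -0.20 to 0.17 for Grik2, -0.19 to 0.44 for Spock3, 0.00 to 0.50 for Pcdh10, -0.41 to 0.03 for Gnao1 and -0.31 to 0.09 for Vstm2b. Against tHet it ran from -0.14 to 0.20 for Scgn, -0.18 to 0.26 for Gnao1, -0.19 to 0.21 for Vstm2b, -0.27 to 0.20 for Grik2 and -0.10 to 0.52 for Spock3. Bhlhe23 rests on 8 to 56 reads in the Tet tcKO libraries, and among the relatives Cabp2 on 6 to 40 and Olig3 on 0 to 20.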

Other observations

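Isl1 and Bhlhe22 are also used outside bipolar cells, and lists of those cells were described for the same comparison, Tet tcKO versus Cre-. None of 4 starburst amacrine genes was called (summed level 51.4 to 66.9 CPM in Cre- and 45.5 to 113 CPM in Tet tcKO). None of 8 ganglion cell genes was called (986 to 1480 and 654 to 1030 CPM). With CT010467.1 left out of the totals, the starburst sums were 51.4 to 67 CPM in Cre- and 63.8 to 113 CPM in Tet tcKO. The ganglion cell sums were then 987 to 1490 and 918 to 1030 CPM. Of 7 amacrine genes, 1 was called lower. Of 4 horizontal cell genes, 1 was called lower.

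Among other cells of the retina, 2 of 6 Müller glia genes were called lower and 1 higher, and 1 of 6 microglia genes was called higher. None of 4 endothelial genes was called. Of 5 pigment epithelium genes, 1 was called lower, and of 6 progenitor genes, 5 of them tested, 2 were called higher. No list had a gene at 0 in every library. The part of these cells in the values of the 9 identity genes was not tested.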
